A study of Mus musculus with 1 sample.

Results

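SWI/SNF chromatin remodelling complexes are built from subunits that exist as paralogues, and for most families a complex holds 1 member in place of another. The 9 genes described here are the ATPases Smarca2 and Smarca4, the core scaffold subunits Smarcc1 and Smarcc2, the adaptor subunits Smarcd1, Smarcd2 and Smarcd3, and the DNA-binding ARID subunits Arid1a and Arid1b. They were chosen by symbol from the 32285 genes of the matrix, all 9 were found once, and the rule uses no measured value. The ratio of paralogues was followed across progenitors that were gated on lineage markers, much as cells are gated in flow cytometry.

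The measurements come from a single droplet library of Kit-positive, lineage-negative marrow cells, taken from control C57BL/6 mice of the genotype CD45.2(+) Brd9fl/fl, which carry floxed Brd9 alleles and no Cre. The mice had been given polyinosinic-polycytidylic acid (pIpC), an inducer of interferon, in 3 doses of 20 mg/kg, and cells were taken 8 weeks later. The sample's labels name a transplant into CD45.1(+) CD45.2(-) recipients whereas the series text names primary mice, and which of these holds was not settled. The study's question was how loss of Brd9 changes blood stem cells, and its Brd9-deleted library is not analysed here, so the comparisons are between cell types of 1 control library.

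Smarca2 (BRM) and Smarca4 (BRG1) are the alternative motors that use ATP to move nucleosomes. Smarcc1 and Smarcc2, which can pair with each other or with themselves, hold the base of the complex together and the Smarcd proteins join it to other subunits and to transcription factors. Arid1a and Arid1b mark the canonical BAF form and are not found together in 1 complex. In blood formation Smarca4 is known for its role in erythroid development and globin gene regulation, and Smarcd2 for neutrophil granule formation.

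The study's cell filter kept 7645 of 8817 barcodes, with a median of 18696 UMIs (unique molecular identifiers, 1 for each captured RNA 3′ end) per cell and a range of 1592 to 49991. Each kept cell was thinned to 5000 UMIs and counted for the marker genes it showed, and 6051 cells (79.1%) were assigned to a gate. The gates held 761 stem-like cells (Hlf, Mecom, Procr and others), 129 Flt3 multipotent cells, 448 granulocyte-monocyte cells (Mpo, Ctsg), 790 neutrophil cells (Cebpe, Elane), 1686 monocyte cells (Irf8, F13a1), 534 megakaryocyte cells (Pf4, Gp9), 1188 erythroid cells (Klf1, Car1) and 372 basophil or mast cells (Prss34, Mcpt8). The list intended for dendritic cells caught 133 cells in which its genes did not all bear out that name. Siglech and Cd209d were at 0, although Cd209d was at most 0.458 CPM (counts per 1000000 UMIs) in any gate. Ccr9, of the same list, was at 19.8 CPM, against 0 in stem-like cells. The MHC class II gene Cd74 was at 1179 CPM, and the summed stem markers were at 1018 CPM against 1123 CPM in the stem-like gate. Irf8 (145 against 8.48 CPM in stem-like cells), Flt3 (82.2 against 17.1) and Dntt (271 against 2.66) were higher than there. These cells may thus be mixed and are called the MHC class II gate. The B lineage gate had 10 cells and is left out below.

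Levels are the UMIs of a gene summed over a gate, in CPM of that gate, and a ratio is the UMIs of a gene divided by those of its paralogue in the same cells. All intervals in parentheses are exact 95% intervals, which cover counting error only: there is 1 library, so no difference could be set against a spread between animals. A UMI count does not grow with transcript length but does depend on how well each 3′ end is captured, so a ratio of 1 does not mean equal RNA, and comparisons are made for the same ratio between gates. Lists of genes of other cell types were summed in the 9 gates. The T or NK list ran from 31.4 CPM in erythroid to 1227 CPM in neutrophil cells (121 in stem-like), nearly all of it Nkg7, with Cd3e at 0, Cd3g at most 0.0972 CPM and Trbc2 at most 14.8 CPM. The plasma cell list ran from 28.1 CPM in erythroid to 212 CPM in stem-like cells, where Jchain gave 158 CPM. The endothelial or stromal list ran from 2.84 CPM in erythroid to 110 CPM in basophil or mast cells (35.2 in stem-like), nearly all of it Pecam1, and the mature neutrophil list from 0.0270 CPM in erythroid to 16.1 CPM in basophil or mast cells (1.27 in stem-like). The part of these genes in the results was not tested.

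The 9 genes lie on 8 chromosomes in the mm10 (GRCm38) annotation and are all protein-coding. Smarca2 (ENSMUSG00000024921) spans bases 26605050 to 26778322 of chromosome 19 on the plus strand and Smarca4 (ENSMUSG00000032187) bases 21616169 to 21704230 of chromosome 9 on the plus strand. Smarcc1 is on chromosome 9 (110117708 to 110240178, plus strand) and Smarcc2 on chromosome 10 (128459248 to 128490482, plus strand). Smarcd1 is on chromosome 15 (99702129 to 99713991, plus strand), Smarcd2 on chromosome 11 (106263179 to 106272972, minus strand) and Smarcd3 on chromosome 5 (24590818 to 24624411, minus strand). Arid1a is on chromosome 4 (133679008 to 133756769, minus strand) and Arid1b on chromosome 17 (4994332 to 5347656, plus strand). Exons of Smarcc1 and Dhx30, and of Smarcd3 and Chpf2, overlap on opposite strands, and a strand setting for the counting is not given in the sources used here, so reads in those overlaps are uncertain. Smarca4 overlaps a small RNA gene on its own strand that has no row in the matrix.

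Leaving aside the ratio of the sparse Smarcd3 to Smarcd1, the ATPase pair showed the widest range of ratios, so the sequence just before each of its genes is shown. Both stretches are the 140 bases before the first annotated base, from RefSeq (GRCm38.p6), plus strand, 5′ to 3′. Capitals mark the letters CGGAAG, a core of ETS factor sites, and GGGCGG, the core of SP factor sites, on either strand.
Smarca2, chr19:26604910-26605049: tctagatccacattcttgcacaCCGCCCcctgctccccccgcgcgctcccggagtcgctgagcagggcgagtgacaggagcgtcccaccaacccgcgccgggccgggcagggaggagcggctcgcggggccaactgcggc
Smarca4, chr9:21616029-21616168: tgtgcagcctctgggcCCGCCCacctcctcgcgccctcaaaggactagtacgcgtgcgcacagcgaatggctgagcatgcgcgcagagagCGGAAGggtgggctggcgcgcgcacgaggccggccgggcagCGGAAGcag
The Smarca4 stretch held 2 matches to CGGAAG and 1 to GGGCGG, and the Smarca2 stretch held 1 match to GGGCGG. The RefSeq start of Smarca2 lies further downstream, and the 250 bases before it, which take in transcribed bases not printed here, held 1 match to CGGAAG and 2 to GGGCGG, against 2 and 3 in the 250 bases before that of Smarca4 and at least 1 in 13.6% and 32.7% of all promoters. Among 32851 mouse promoters, the window at the same distance from the start as the Smarca4 stretch held CGGAAG in 10% and GGGCGG in 28.0%, and that at the distance of the Smarca2 stretch in 5.70% and 15.3%. GATAA, the core of GATA factor sites, was searched on both strands and matched in neither stretch, against 12.4% and 14.9% of promoters, which says only that these letters are not in these windows.

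Of the 8 genes other than the sparse Smarcd3, Smarca2 varied most between gates. Its level was 167 CPM (158 to 176) in stem-like cells, 150 CPM (131 to 172) in the MHC class II gate and 103 CPM (96.3 to 110) in megakaryocyte cells. It was 53.2 CPM (43.5 to 64.5) in Flt3 multipotent cells, 51.3 CPM (45.4 to 57.9) in basophil or mast cells, 28.7 CPM (25.5 to 32.1) in granulocyte-monocyte cells, 25 CPM (23.4 to 26.7) in monocyte cells, 21.9 CPM (19.7 to 24.3) in neutrophil cells and 11.3 CPM (10.3 to 12.5) in erythroid cells. The stem-like level was 14.7 times the erythroid level (13.2 to 16.5). This fold was 3.63 (2.81 to 4.78) among cells of 8000 to 16000 UMIs and 3.82 (2.68 to 5.62) among cells with fewer than 3 UMIs of 10 cycle genes. In the order over all cells, only stem-like against MHC class II cells, and Flt3 multipotent against basophil or mast cells, did not differ beyond counting error.

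Smarca4 had a flatter and different profile. It was highest in megakaryocyte cells at 132 CPM (124 to 139), Flt3 multipotent cells at 130 CPM (114 to 146) and erythroid cells at 127 CPM (124 to 131), which did not differ beyond counting error. Stem-like cells had 108 CPM (101 to 115), MHC class II cells 104 CPM (87.8 to 123), monocyte cells 94.1 CPM (91.0 to 97.3), granulocyte-monocyte cells 89.1 CPM (83.4 to 95.1) and basophil or mast cells 87.6 CPM (79.7 to 96.0). Neutrophil cells stood apart at 60.1 CPM (56.5 to 64.0). Erythroid cells thus combined the lowest Smarca2 level with one of the 3 highest Smarca4 levels.

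**Figure D1:**
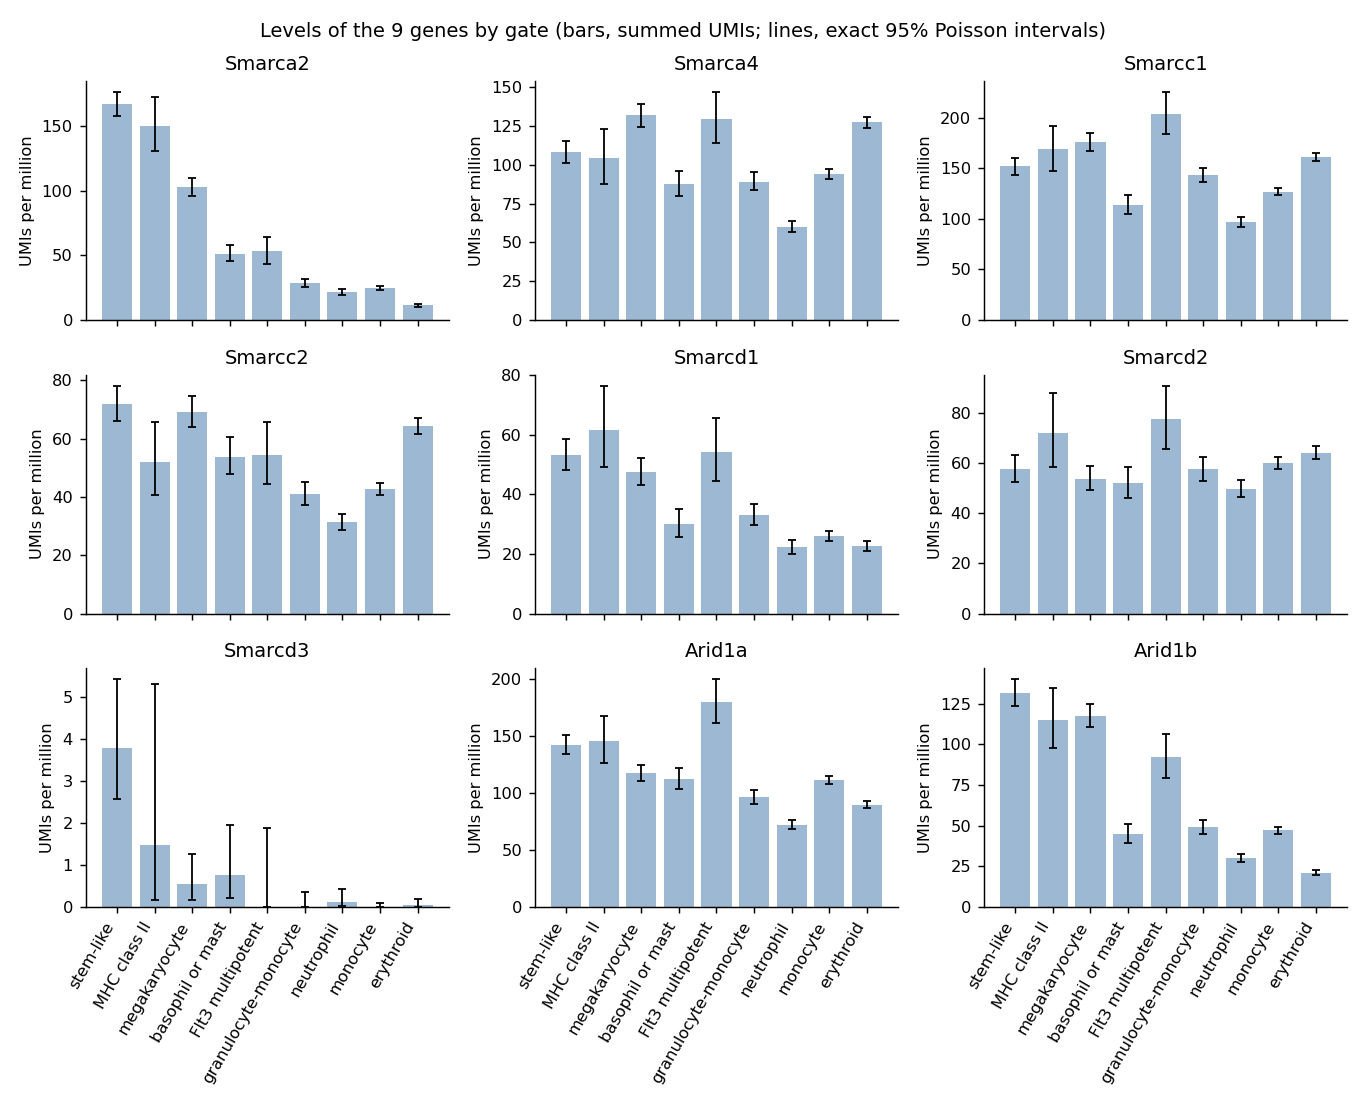
Levels of the 9 genes in the 9 gates of at least 50 cells, in CPM of the gate (linear axes starting at 0, one scale per gene); bars are summed UMIs and lines exact 95% Poisson intervals. Smarca2 and Arid1b step down from stem-like to erythroid cells, from 167 to 11.3 and from 132 to 21.1, while Smarca4, Smarcc1 and Smarcd2 stay within 2.19-fold, 2.10-fold and 1.56-fold of their lowest gate.

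The Smarca2 to Smarca4 ratio was 1.54 (1.42 to 1.68) in stem-like cells, from 1317 and 853 UMIs, so Smarca2 gave 60.7% of the ATPase UMIs. In the MHC class II gate it was 1.44 (1.16 to 1.80). Over all cells of each gate, these were the 2 gates in which Smarca2 UMIs outnumbered those of Smarca4. The ratio was 0.780 (0.716 to 0.850) in megakaryocyte cells, 0.586 (0.502 to 0.683) in basophil or mast cells and 0.411 (0.324 to 0.518) in Flt3 multipotent cells. It was 0.364 (0.322 to 0.411) in neutrophil, 0.322 (0.281 to 0.367) in granulocyte-monocyte and 0.266 (0.247 to 0.286) in monocyte cells. Erythroid cells had 0.0890 (0.0804 to 0.0984), from 419 Smarca2 and 4707 Smarca4 UMIs, a Smarca2 share of 8.17%.

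The stem-like ratio of the ATPases was 4.24 times the neutrophil ratio (3.65 to 4.93), 5.81 times the monocyte ratio (5.18 to 6.51) and 17.3 times the erythroid ratio (15.2 to 19.8). It was 1.98 times that of megakaryocyte cells (1.75 to 2.24), 2.63 times that of basophil or mast cells (2.21 to 3.15) and 3.76 times that of Flt3 multipotent cells (2.93 to 4.84). Against the MHC class II gate the fold was 1.07 (0.843 to 1.35), no difference detectable at this depth. Apart from these 2 gates, the order of the ratios was resolved except among Flt3 multipotent, neutrophil and granulocyte-monocyte neighbours. In 109 cells that opened the stem-like and the Flt3 gate together and were kept out of both, the ratio was 1.05 (0.822 to 1.35), between the 2 gates.

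**Figure D2:**
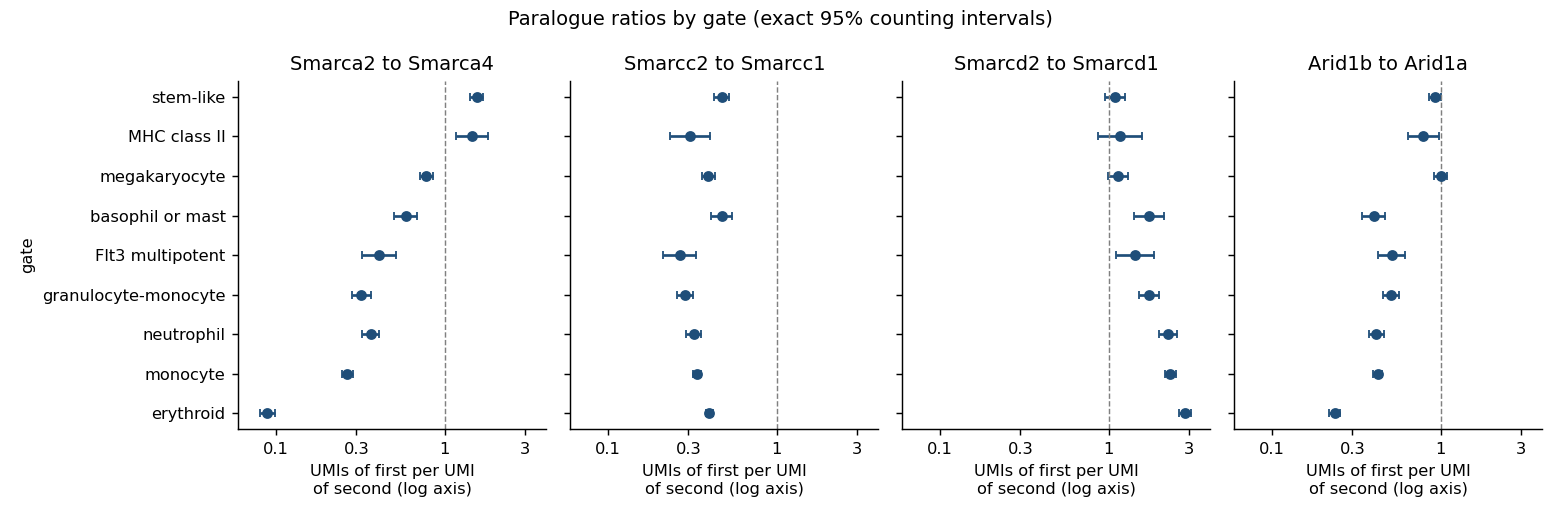
Ratio of summed UMIs of 4 paralogue pairs in each gate (points; log axis, dashed line at 1) with exact 95% counting intervals. The Smarca2 to Smarca4 ratio runs from 1.54 in stem-like to 0.0890 in erythroid cells, the Arid1b to Arid1a ratio from 1.0 in megakaryocyte to 0.235 in erythroid cells, the Smarcd2 to Smarcd1 ratio runs the other way, from 1.09 to 2.83, and the Smarcc2 to Smarcc1 ratio stays between 0.266 and 0.474.

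Depth and cycling moved with the ATPase ratio between gates. Stem-like and MHC class II cells had the lowest median depths, 8970 and 8893 UMIs, and the lowest shares of cells with at least 3 UMIs of 10 cycle genes, 41.1% and 32.3%. Erythroid cells had the highest, 32612.5 UMIs and 95.7%. The same direction was seen inside the gates. In all 9 gates the Smarca2 to Smarca4 ratio was higher in cells below the gate's median depth than in those at or above it, by 1.29 to 2.07 times with every interval above 1. In all 9 it was also higher in cells with fewer than 3 cycle UMIs, by 1.33 to 5.64 times, with 8 of 9 intervals above 1 and the monocyte interval from 0.917 to 1.90.

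Within the stem-like gate the ATPase ratio was 2.37 (2.04 to 2.77) in the shallower and 1.21 (1.09 to 1.35) in the deeper cells. It was 2.03 (1.79 to 2.31) in cells with few cycle UMIs and 1.18 (1.04 to 1.33) in the others. Splitting by both, it was 2.21 (1.87 to 2.63) in 306 shallow cells with few cycle UMIs, 1.80 (1.49 to 2.20) in 142 deep cells with few, 3.14 (2.21 to 4.56) in 74 shallow cells with more and 0.996 (0.871 to 1.14) in 239 deep cells with more. The low value was thus that of the deep cells with cycle UMIs, and cycle UMIs did not go with a lower ratio among the shallow cells.

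**Figure D3:**
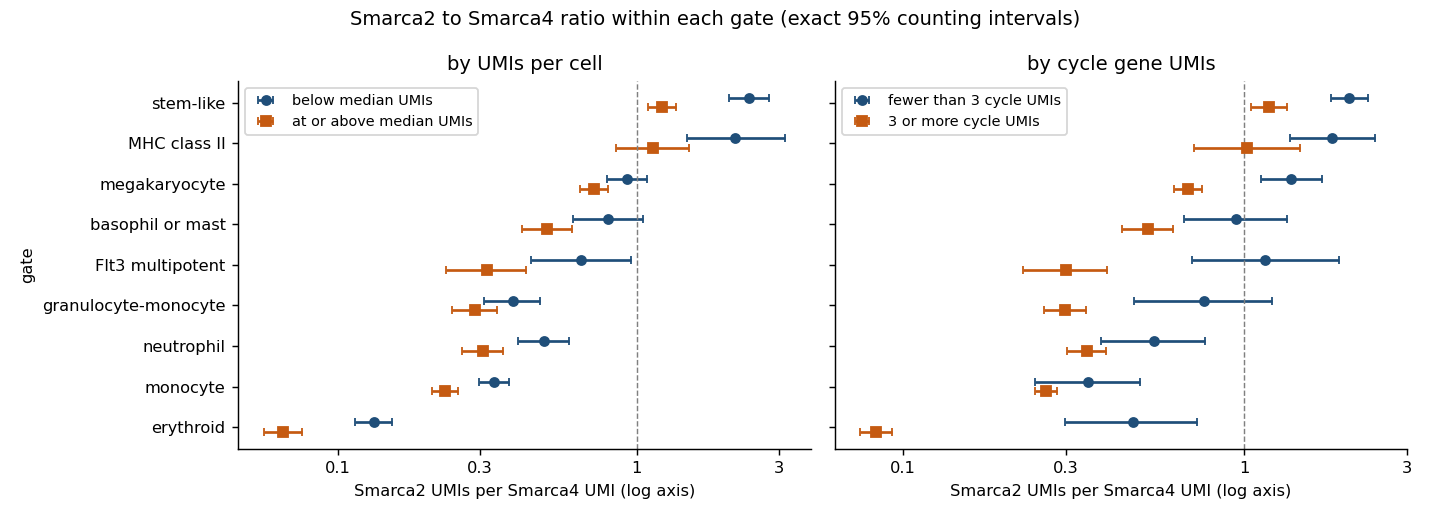
Smarca2 to Smarca4 ratio within each gate (log axis, dashed line at 1, exact 95% counting intervals), left for cells below and at or above the gate's median UMIs, right for cells with fewer than 3 and with 3 or more UMIs of cycle genes. The ratio is lower in the deeper cells and in those with more cycle UMIs in all 9 gates, from 2.37 against 1.21 in stem-like to 0.132 against 0.0659 in erythroid cells by depth.

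The difference between gates kept its direction when cells were matched, and was smaller in all comparisons of stem-like cells with neutrophil, monocyte and erythroid cells but that with monocyte cells of few cycle UMIs. Among cells of 8000 to 16000 UMIs the ATPase ratio was 1.47 (1.31 to 1.66) in stem-like, 0.653 (0.442 to 0.956) in neutrophil, 0.338 (0.274 to 0.414) in monocyte and 0.358 (0.264 to 0.480) in erythroid cells. The stem-like ratio was then 2.26, 4.36 and 4.12 times that of the 3 committed gates, and the erythroid and monocyte intervals overlapped. Among cells with fewer than 3 cycle UMIs the erythroid ratio was 0.471 (0.299 to 0.726) and the monocyte ratio 0.349 (0.243 to 0.493). Erythroid cells thus had the lowest ratio under neither match. Smarca2 UMIs also outnumbered those of Smarca4 in megakaryocyte cells with few cycle UMIs, at a ratio of 1.37 (1.12 to 1.68). In Flt3 multipotent cells with few cycle UMIs the ratio was 1.15 (0.703 to 1.89), with neither gene ahead beyond counting error. Among cells of 8000 to 16000 UMIs these gates had 0.887 (0.755 to 1.04) and 0.663 (0.462 to 0.943). With few cycle UMIs the stem-like ratio was 3.75 times the neutrophil (2.58 to 5.48), 5.82 times the monocyte (4.01 to 8.55) and 4.31 times the erythroid ratio (2.73 to 6.91). The erythroid fold thus shrank from 17.3 by more than 1.5 times under either match, and the neutrophil fold under the match on depth, and the part of depth and cycling in these differences was not tested. With 1 marker fewer per gate the folds over neutrophil and erythroid cells were 2.69 and 11.1. That setting left 287 stem-like cells, against 761 in the main run, so the gate was smaller and not wider.

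The ATPase ratio also moved with stage markers within gates. Among stem-like cells it was 1.11 (0.954 to 1.30) in those with 2 of the 6 stem markers, 1.49 (1.27 to 1.76) with 3, 2.03 (1.67 to 2.49) with 4, 1.99 (1.57 to 2.53) with 5 and 2.90 (1.74 to 5.02) in the 30 cells with all 6. Over these steps the Smarca2 level went from 132 to 241 CPM and the Smarca4 level from 119 to 82.9 CPM, and median depth went from 11272 to 8037.5 UMIs. Stem-like cells with more stem markers thus held more Smarca2 for each Smarca4 UMI.

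Erythroid cells showed the steps in the other direction. With none of the 6 later erythroid markers (Slc4a1, Alas2 and others) the ATPase ratio was 0.164 (0.136 to 0.196), with 1 it was 0.104 (0.0857 to 0.126), with 2 it was 0.0671 (0.0525 to 0.0845), with 3 it was 0.0617 (0.0461 to 0.0811) and with 4 it was 0.0353 (0.0196 to 0.0589). The 50 cells with 5 later markers had 11 Smarca2 UMIs and a ratio of 0.0629 (0.0308 to 0.115), and the 20 cells with 6 had 1 Smarca2 UMI. From 0 to 4 markers the Smarca2 level went from 23.1 to 4.02 CPM and the Smarca4 level from 141 to 114 CPM, so the step lay mostly in Smarca2. Median depth rose from 26273 to 35926.5 UMIs at 2 markers and was 31591.5 at 4, and the part of depth in these steps was not tested.

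In megakaryocyte cells the ATPase ratio was 0.963 (0.850 to 1.09) with 3 of the 6 platelet lineage markers, 0.662 (0.569 to 0.769) with 4 and 0.605 (0.483 to 0.755) with 5. Neutrophil cells with 0, 1 and 2 later markers had 0.357 (0.297 to 0.428), 0.385 (0.311 to 0.475) and 0.380 (0.285 to 0.504). No step was detectable between these 3 neutrophil groups, and the 34 cells with 3 later markers had 3 Smarca2 UMIs.

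**Figure D4:**
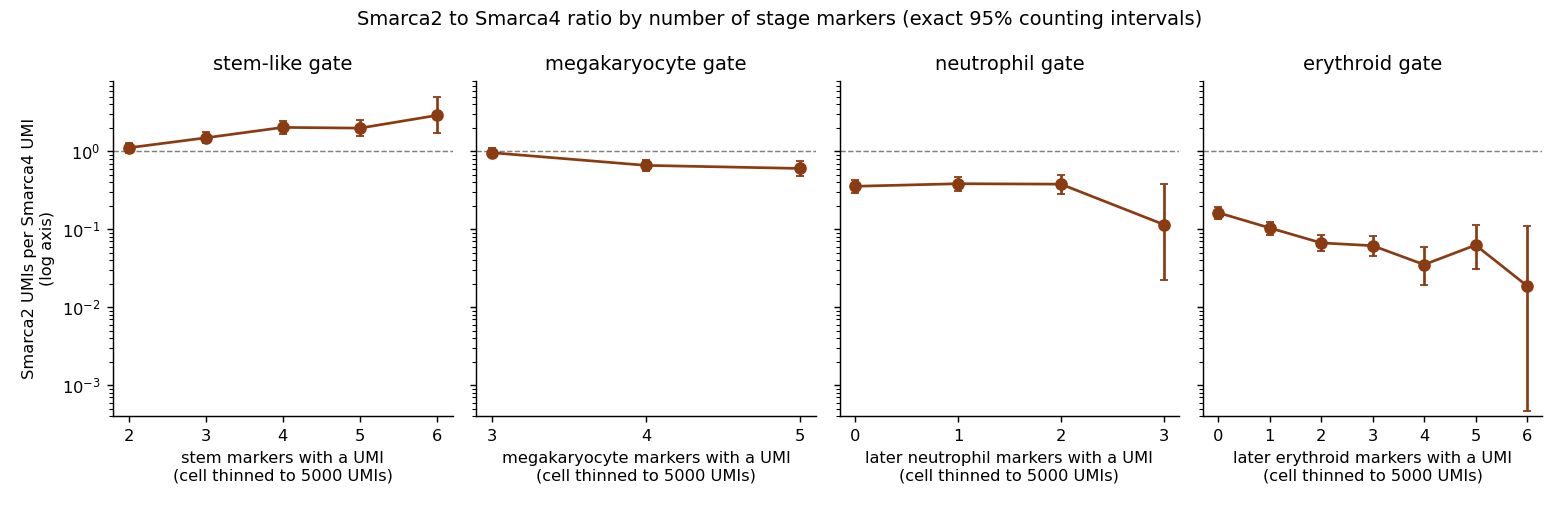
Smarca2 to Smarca4 ratio (log axis, exact 95% counting intervals, dashed line at 1) against the number of stage markers with a UMI in cells thinned to 5000 UMIs, in 4 gates. The ratio climbs from 1.11 to 2.90 with stem markers, steps down from 0.963 to 0.605 with megakaryocyte markers and from 0.164 to 0.0353 over 0 to 4 later erythroid markers, and is level at 0.357 to 0.385 over 0 to 2 later neutrophil markers; the last erythroid point rests on 1 Smarca2 UMI.

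The scaffold pair was the steadiest. Smarcc1 was at 204 CPM (184 to 225) in Flt3 multipotent, 175 CPM (167 to 184) in megakaryocyte, 169 CPM (148 to 192) in MHC class II, 161 CPM (157 to 165) in erythroid, 152 CPM (143 to 161) in stem-like and 143 CPM (136 to 151) in granulocyte-monocyte cells. From megakaryocyte to granulocyte-monocyte cells no neighbours in this order differed beyond counting error. Monocyte cells had 127 CPM (123 to 130), basophil or mast cells 114 CPM (105 to 123) and neutrophil cells 97.0 CPM (92.4 to 102). Smarcc2 was highest in stem-like cells at 71.9 CPM (66.1 to 78.1), megakaryocyte cells at 69.2 CPM (63.9 to 74.8) and erythroid cells at 64.3 CPM (61.7 to 66.9), and it was 54.3 CPM (44.4 to 65.6) in Flt3 multipotent, 53.8 CPM (47.7 to 60.5) in basophil or mast, 52.1 CPM (40.7 to 65.7) in MHC class II, 42.7 CPM (40.6 to 44.9) in monocyte, 41.0 CPM (37.2 to 45.1) in granulocyte-monocyte and 31.3 CPM (28.7 to 34.1) in neutrophil cells. Of the neighbours in the Smarcc2 order, granulocyte-monocyte against neutrophil cells alone differed beyond counting error. Both scaffold genes were thus lowest in neutrophil cells.

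Smarcc1 gave more UMIs than Smarcc2 in every gate. The Smarcc2 to Smarcc1 ratio was 0.474 (0.428 to 0.524) in stem-like, 0.473 (0.409 to 0.546) in basophil or mast, 0.399 (0.380 to 0.419) in erythroid and 0.394 (0.359 to 0.432) in megakaryocyte cells. It was 0.337 (0.319 to 0.357) in monocyte, 0.323 (0.292 to 0.357) in neutrophil, 0.309 (0.233 to 0.404) in MHC class II, 0.287 (0.257 to 0.320) in granulocyte-monocyte and 0.266 (0.213 to 0.331) in Flt3 multipotent cells. The stem-like ratio was 1.47 times the neutrophil (1.27 to 1.69), 1.41 times the monocyte (1.25 to 1.58) and 1.19 times the erythroid ratio (1.06 to 1.33). In cells of 8000 to 16000 UMIs the last 2 turned to 0.955 and 0.953, so only the neutrophil comparison kept its direction at matched depth.

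Along the erythroid steps the scaffold ratio rose while the ATPase ratio fell. The Smarcc2 to Smarcc1 ratio was 0.327 (0.290 to 0.368) with no later marker, 0.341 (0.307 to 0.377) with 2, 0.475 (0.428 to 0.528) with 3, 0.544 (0.472 to 0.627) with 4 and 0.736 (0.583 to 0.927) with 5. In erythroid cells with at least 2 later markers it was 0.446 (0.419 to 0.474) against 0.338 (0.312 to 0.365) in the earlier ones, and the ATPase ratio was 0.0591 (0.0500 to 0.0693) against 0.129 (0.113 to 0.147).

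Smarcd2 gave more UMIs than Smarcd1 in every gate, and the size of its lead varied. Smarcd1 was at 61.6 CPM (49.2 to 76.3) in MHC class II, 54.3 CPM (44.4 to 65.6) in Flt3 multipotent, 53.1 CPM (48.1 to 58.4) in stem-like and 47.3 CPM (43.0 to 52.0) in megakaryocyte cells, neighbours in this order being within counting error. It was 33.0 CPM (29.6 to 36.8) in granulocyte-monocyte, 30.1 CPM (25.6 to 35.2) in basophil or mast, 25.9 CPM (24.3 to 27.6) in monocyte, 22.6 CPM (21.1 to 24.2) in erythroid and 22.2 CPM (20.0 to 24.6) in neutrophil cells. Smarcd2 lay between 49.6 CPM (46.3 to 53.1) in neutrophil cells and 77.3 CPM (65.5 to 90.7) in Flt3 multipotent cells. Its other levels were 71.9 CPM in MHC class II, 64.1 CPM in erythroid, 59.9 CPM in monocyte, 57.7 CPM in stem-like, 57.4 CPM in granulocyte-monocyte, 53.8 CPM in megakaryocyte and 51.9 CPM in basophil or mast cells. Of the 8 neighbouring pairs in that order, erythroid against monocyte cells alone differed beyond counting error, at 1.07 (1.01 to 1.13).

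The Smarcd2 to Smarcd1 ratio was 1.09 (0.951 to 1.25) in stem-like, 1.14 (0.997 to 1.30) in megakaryocyte and 1.17 (0.863 to 1.58) in MHC class II cells, where neither gene was ahead beyond counting error. It was 1.42 (1.10 to 1.84) in Flt3 multipotent, 1.73 (1.41 to 2.11) in basophil or mast and 1.74 (1.52 to 1.99) in granulocyte-monocyte cells. In neutrophil cells it was 2.24 (1.97 to 2.53), in monocyte cells 2.31 (2.14 to 2.50) and in erythroid cells 2.83 (2.62 to 3.07). The stem-like ratio was thus 0.487 of the neutrophil (0.405 to 0.586), 0.471 of the monocyte (0.403 to 0.550) and 0.384 of the erythroid ratio (0.328 to 0.450). Inside gates, 2 of 9 depth splits and 1 of 9 cycle splits had an interval without 1. Among cells with fewer than 3 cycle UMIs the fold over erythroid cells was 0.763 (0.400 to 1.43), which no longer excludes 1. Along the erythroid steps it was 3.10 (2.57 to 3.76) with no later marker and 3.17 (2.39 to 4.24) with 4.

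Smarcd3, known chiefly from heart and muscle, was sparse. It had 51 UMIs in all kept cells, of which 30 fell in 29 of the 761 stem-like cells, at 3.80 CPM (2.56 to 5.42). There were 5 UMIs in megakaryocyte, 4 in basophil or mast, 2 in MHC class II, 2 in neutrophil and 2 in erythroid cells. There were none in Flt3 multipotent, granulocyte-monocyte and monocyte cells, where a floor of 3 UMIs per gate is 1.54, 0.292 and 0.0808 CPM and the exact upper limits are 1.89, 0.359 and 0.0994 CPM. Set against the floor, the stem-like value was at least 2.47-fold, 13-fold and 47.0-fold higher than in those gates, which leaves the counting error of the stem-like value itself aside. Its 30 stem-like UMIs were 3.31% (2.25 to 4.70) of the UMIs of the 3 Smarcd genes there.

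The Smarcd3 to Smarcd1 ratio of 0.0716 (0.0477 to 0.104) in stem-like cells was 13.2 times the neutrophil ratio (3.32 to 115) and 30.0 times the erythroid ratio (7.53 to 259). In the main run the megakaryocyte Smarcd3 to Smarcd1 ratio was lower as well, by a fold of 6.20 (2.35 to 20.6), while those of MHC class II and basophil or mast cells could not be told from the stem-like ratio, at 3.01 (0.737 to 26.4) and 2.81 (0.966 to 11.1). Of the 30 stem-like UMIs, 23 were in the 448 cells with fewer than 3 cycle UMIs and 7 in the 313 others.

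Arid1b followed a course much like that of Smarca2, while Arid1a did not. Arid1b was at 132 CPM (124 to 140) in stem-like, 118 CPM (111 to 125) in megakaryocyte, 115 CPM (97.9 to 135) in MHC class II and 92.1 CPM (79.2 to 107) in Flt3 multipotent cells. It was 49.3 CPM (45.1 to 53.8) in granulocyte-monocyte, 47.2 CPM (45.0 to 49.5) in monocyte, 45.0 CPM (39.4 to 51.2) in basophil or mast, 30.1 CPM (27.5 to 32.8) in neutrophil and 21.1 CPM (19.7 to 22.7) in erythroid cells. Stem-like cells had 6.24 times the erythroid level (5.68 to 6.85), and granulocyte-monocyte, monocyte and basophil or mast cells did not differ from their neighbours among themselves. Arid1a was highest in Flt3 multipotent cells at 180 CPM (162 to 200), followed by 146 CPM (126 to 168) in MHC class II and 142 CPM (134 to 151) in stem-like cells. It was 118 CPM (111 to 125) in megakaryocyte, 112 CPM (103 to 122) in basophil or mast, 112 CPM (108 to 115) in monocyte, 96.6 CPM (90.7 to 103) in granulocyte-monocyte, 89.8 CPM (86.7 to 92.9) in erythroid and 72.3 CPM (68.3 to 76.5) in neutrophil cells.

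The Arid1b to Arid1a ratio was 1.0 (0.918 to 1.09) in megakaryocyte cells, with 1077 UMIs of each gene, 0.925 (0.850 to 1.01) in stem-like and 0.789 (0.636 to 0.977) in MHC class II cells. It was 0.511 (0.425 to 0.614) in Flt3 multipotent, 0.510 (0.457 to 0.568) in granulocyte-monocyte, 0.423 (0.400 to 0.447) in monocyte, 0.416 (0.374 to 0.462) in neutrophil, 0.401 (0.343 to 0.467) in basophil or mast and 0.235 (0.217 to 0.255) in erythroid cells. The stem-like ratio was 2.23 times the neutrophil (1.94 to 2.55), 2.19 times the monocyte (1.97 to 2.42) and 3.93 times the erythroid ratio (3.50 to 4.42). Megakaryocyte cells kept the stem-like ARID ratio, with a fold of 0.925 (0.820 to 1.04), although their ATPase ratio was lower.

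Depth left the ARID ratio more level. At 8000 to 16000 UMIs per cell the stem-like fold was 2.81 over monocyte and 3.01 over erythroid cells, and the depth splits within gates had no interval above 1 and 2 below it. Along the erythroid steps it stayed between 0.212 (0.178 to 0.252) and 0.256 (0.215 to 0.302) from 0 to 4 later markers. Over the same cells Arid1b went from 29.1 to 16.1 CPM and Arid1a from 114 to 70.8 CPM, so both ARID genes came down together there while the ATPases parted.

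These folds stand on a background in which stem-like cells had higher relative levels of many genes. The median fold of all genes tested, those with at least 50 UMIs in the 2 gates together, was 1.51 over neutrophil, 1.28 over monocyte and 1.29 over erythroid cells. Smarcd3 was under that minimum throughout, and the other 8 members were tested. More than 1.5-fold higher in stem-like than in neutrophil cells were 7 of the 8, against 50.4% of 11067 genes. When folds were taken relative to the median gene, 4 of the 8 passed over neutrophil cells. Over monocyte cells 4 of the 8 passed, against 40.5% of 11775 genes, and over erythroid cells 4 of the 8, against 43.5% of 11452 genes. None of the 8 was more than 1.5-fold lower in stem-like cells, against 11.7%, 15.2% and 19.8% of genes. The counts of members are near these shares for monocyte and erythroid cells, so a count alone sets the members little apart from other genes.

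Single members lay at different places in that background. Smarca2 was 7.61-fold (6.77 to 8.57), 6.67-fold (6.13 to 7.26) and 14.7-fold (13.2 to 16.5) higher in stem-like than in neutrophil, monocyte and erythroid cells, above 92.1%, 92.2% and 91.7% of the genes tested. At matched depth these Smarca2 folds were 5.42 (4.04 to 7.45), 4.90 (4.05 to 5.97) and 3.63 (2.81 to 4.78), and over erythroid cells with few cycle UMIs 3.82 (2.68 to 5.62). Arid1b was 4.38-fold (3.94 to 4.89), 2.79-fold (2.58 to 3.02) and 6.24-fold (5.68 to 6.85) higher, above 87.2%, 82.4% and 85.7% of genes, and over erythroid cells 2.63-fold (2.06 to 3.40) at matched depth and 2.01-fold (1.47 to 2.81) with few cycle UMIs. Smarcd1 followed at 2.39-fold (2.07 to 2.76), 2.05-fold (1.82 to 2.30) and 2.35-fold (2.08 to 2.64), the last being 1.49 (0.948 to 2.46) with few cycle UMIs. These 3 genes kept the direction when folds were taken relative to the median gene, at 1.58 to 11.5 times it.

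The partner paralogues did not keep 1 direction. Smarca4 was at 1.80 (1.64 to 1.97), 1.15 (1.06 to 1.24) and 0.849 (0.788 to 0.913) times over the same 3 gates, and relative to the median gene at 1.19, 0.895 and 0.660. Arid1a was at 1.97 (1.81 to 2.14), 1.28 (1.19 to 1.36) and 1.59 (1.48 to 1.70), relative to the median gene at 1.30, 0.996 and 1.23, and over erythroid cells at 0.873 (0.747 to 1.02) at matched depth and 0.761 (0.621 to 0.939) with few cycle UMIs. Smarcd2 was at 1.16 (1.04 to 1.31), 0.963 (0.869 to 1.07) and 0.901 (0.813 to 0.996), and below the median gene in all 3, while over erythroid cells with few cycle UMIs it was at 1.14 (0.773 to 1.73).

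Against the other gates the background shares were 24.0% over Flt3 multipotent cells, where 1 of the 8 members passed 1.5-fold, 41.2% over granulocyte-monocyte cells with 4, 19.1% over megakaryocyte cells with 1, 32.8% over basophil or mast cells with 3 and 8.43% over the MHC class II gate with none. None of the 8 was more than 1.5-fold lower over these 5 gates, against 8.59% of genes for Flt3 multipotent, 12.1% for granulocyte-monocyte, 8.16% for megakaryocyte, 11.5% for basophil or mast cells and 3.75% for the MHC class II gate. The single member that passed over Flt3 multipotent cells was Smarca2, at 3.13 (2.56 to 3.86), and it was also the 1 that passed over megakaryocyte cells, at 1.62 (1.49 to 1.77). That call was lost with 1 marker fewer per gate, at 1.31 (1.17 to 1.46), and with few cycle UMIs, at 1.32 (1.14 to 1.53).

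**Figure D5:**
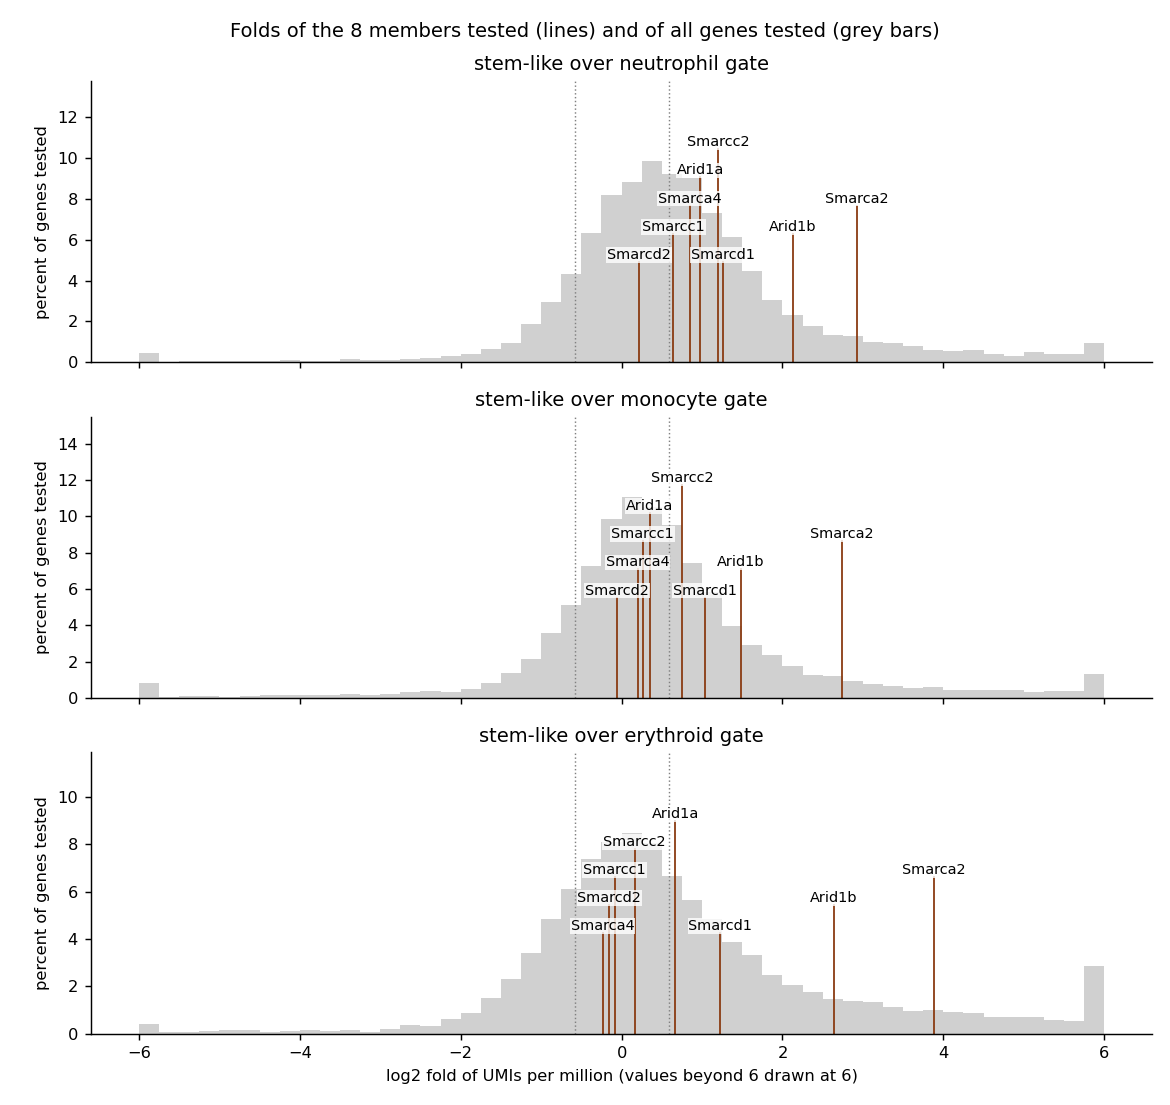
Distribution of the log2 fold of stem-like cells over neutrophil, monocyte and erythroid cells for all genes tested (grey bars, percent of genes; dotted lines at 1.5-fold either way) with the 8 members tested as labelled lines, whose heights carry no value; folds beyond 6 on the log2 scale are drawn at 6. Smarca2 and Arid1b lie in the right flank in all 3 panels, and Smarca4, Smarcc1 and Smarcd2 left of the middle of the genes over erythroid cells.

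The other subunits of the complexes were compared as a list of 20 genes. Over neutrophil cells 9 of 17 tested were more than 1.5-fold higher in stem-like cells, against 50.4% of all genes, and none lower, against 11.7%. These were Dpf2, Ss18, Ss18l1, Bcl7a, Bcl7b, Arid2, Pbrm1, Bicra and Bicral, between 1.63-fold and 3.17-fold. Over monocyte cells 6 of 17 passed, Dpf2, Ss18, Ss18l1, Arid2, Bicra and Bicral, between 1.70-fold and 2.06-fold, against 40.5% of all genes. Over erythroid cells Dpf2, Ss18, Ss18l1, Bicra and Bicral, 5 of 18, passed at 1.60-fold to 2.48-fold, against 43.5% of all genes. These shares are near or below those of all genes, so the counts set the list little apart. The medians of the list were 1.63, 1.23 and 1.04, against 1.51, 1.28 and 1.29 over all genes.

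Another 4 of the 18 subunits were more than 1.5-fold lower in stem-like than in erythroid cells, a share near the 19.8% of all genes. Phf10, a PHD finger subunit of the PBAF form, had 40.1 CPM in stem-like and 199 CPM in erythroid cells, a fold of 0.201 (0.179 to 0.225). Dpf3 was at 1.65 and 9.05 CPM, from 13 and 335 UMIs. Actl6a, an actin-related subunit, was at 0.576 (0.533 to 0.623) and Brd7, a bromodomain subunit of PBAF, at 0.573 (0.525 to 0.625). None of the 8 paralogues tested differed that far in this direction.

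Likeness between genes was taken as Pearson's r of log2(CPM + 1) over the 9 gates, which share 1 library, among 9781 genes with at least 500 UMIs in gated cells, and is a description. Among the members, Smarca2 was closest to Arid1b (r = 0.94) and Smarcd1 (r = 0.89), and Smarca4 to Smarcc1 (r = 0.91) and Smarcc2 (r = 0.85). Smarca2 and Smarca4 themselves had r = 0.29. Over all genes, those most like Smarca2 included Eva1b and Cers4, a ceramide synthase, at r = 0.997 and 0.991, and those most like Smarca4 were Cdc27, Sfpq and Prpf38b at 0.98. Those for Smarcc2 included Xpr1 and Actr1b. Those for Smarcc1 were Utp25, Mta1 and Cnot11, for Smarcd1 Pde4b, Peg13 and Rps19 and for Smarcd2 Bcl2l11, Rpgrip1 and Vps11. Pde7a, Atrx and Med13l were most like Arid1a, and Kif16b, Dvl2 and Dennd5b most like Arid1b. Smarcd3, with 45 UMIs in gated cells, was too sparse for such a comparison.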

How the data were processed

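The 1 library was made, per the study's methods, with a 10x Chromium 3′ kit, while the sample's labels describe a kit for bulk RNA, and the deposited values are of the droplet kind. The authors deposited UMI counts, whole numbers that are not normalized, from Cell Ranger 6.0.2 on mm10, for 8817 called barcodes. Barcodes were kept by the limits in the study's methods, a UMI total between 1000 and 50000, between 1000 and 6500 genes detected, and a mitochondrial share below 7%. A gate opened at 3 markers for committed types, 2 for stem-like and Flt3 cells and 4 for granulocyte-monocyte cells, each cell being thinned to 5000 UMIs for gating only, and 99 cells under that depth were used as they were. Cells that opened no gate (739), more than 1 committed gate (660) or more than 1 uncommitted gate (195) were left out. The committed gates went before the uncommitted ones. Of the gated cells, 131 of the 133 in the MHC class II gate and 215 of the 761 (28.3%) in the stem-like gate had just the number of markers needed. This share was 49.1% in the megakaryocyte, 45.1% in the neutrophil, 43.4% in the Flt3 multipotent and 35.7% in the granulocyte-monocyte gate. It was 18.7% in the erythroid, 17.4% in the monocyte and 14.0% in the basophil or mast gate. Doublets (265 calls, 3.47%, Scrublet in scanpy 1.11.5) were kept and removed in an alternative.

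Counts were summed by gate. Levels have exact Poisson, ratios exact binomial and folds of ratios exact noncentral hypergeometric intervals (scipy 1.17.1). With 1 library no test between groups was possible and no p-value is given, and intervals cover counting error only. On Poisson sums simulated for stem-like over erythroid cells with 200 of 11452 genes changed 3-fold, 99.0% of these were placed on the right side of 1 and 95.8% of intervals held the true fold. Exact intervals are built to hold on such counts, so this checks the calculation only. The simulation had no spread between cells or animals and no gating error. The genes named are the 9 members, those of 20 other subunits past 1.5-fold with an interval without 1 between stem-like and neutrophil, monocyte or erythroid cells, and the 3 genes most like each member, some of which are not reported here. The members, markers and lists were chosen with earlier results of these data known. Coordinates are from GENCODE M21 and promoters from RefSeq. Alternatives changed the markers needed, thinning, doublets, cell filter, seed, minimum UMIs and the UMIs in the total. Cells of matched depth or few cycle UMIs, folds over the median gene, and steps by number of markers were added after the data had been seen.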

Additional observations from a re-analysis of the deposited data

How the results depend on the processing

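The Smarca2 to Smarca4 ratio stayed higher in stem-like than in neutrophil, monocyte and erythroid cells under every alternative run, as did the Arid1b to Arid1a ratio, and the Smarcd2 to Smarcd1 ratio stayed lower. With 1 marker fewer per gate the stem-like gate held 287 cells and the monocyte gate 909, against 761 and 1686 in the main run. The ATPase folds were then 2.69, 4.27 and 11.1 and the Smarcc2 to Smarcc1 folds over neutrophil and erythroid cells 1.27 and 1.06. With 1 marker more the ATPase folds over neutrophil and erythroid cells were 5.12 and 24.3. Gates on unthinned counts gave an ATPase fold over monocyte cells of 5.04 and scaffold folds of 1.21 over monocyte and 1.05 over erythroid cells, and the stricter cell filter ATPase folds of 5.15 over monocyte and 14.5 over erythroid cells. Another thinning seed gave an ARID fold over monocyte cells of 1.95.

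In cells of 8000 to 16000 UMIs the ATPase folds were 2.26, 4.36 and 4.12, the scaffold folds over monocyte and erythroid cells 0.955 and 0.953, the Smarcd2 fold over erythroid cells 0.467 and the ARID folds over monocyte and erythroid cells 2.81 and 3.01. In cells with few cycle UMIs the ATPase and ARID folds over erythroid cells were 4.31 and 2.64, the scaffold fold over monocyte cells 1.61 and the Smarcd2 folds 0.377 over neutrophil and 0.763 over erythroid cells. The cause was not tested.

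The number of members more than 1.5-fold higher over Flt3 multipotent cells was 2 with 1 marker fewer (30 cells), without the first marker, with few cycle UMIs (41 cells) or without a minimum of UMIs. Over megakaryocyte cells it was 0 with 1 marker fewer and with few cycle UMIs, and 2 without the minimum. Over the MHC class II gate it was 3 with 1 marker more, where that gate held only 5 cells. It was 1 at matched depth, with few cycle UMIs and without the minimum. Over granulocyte-monocyte cells it was 2 on unthinned counts (37 cells) and relative to the median gene, over erythroid cells 2 with few cycle UMIs, and over neutrophil cells 4 relative to the median gene.

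The single folds listed next crossed 1 and had a main interval that left out 1. Folds whose main interval held 1 also crossed it in places and are not listed. On unthinned counts the listed folds were Smarcc2 over Flt3 multipotent (0.859, 59 cells) and erythroid cells (0.987), and Smarcd1 (0.954) and Arid1a (0.849) over 37 granulocyte-monocyte cells. At matched depth they were Smarcc1 (1.05) and Arid1b (0.973) over megakaryocyte cells and Smarcc2 (0.970) and Arid1a (0.873) over erythroid cells. With few cycle UMIs they were Smarca4 over 41 Flt3 multipotent cells (1.13), Smarcd2 over neutrophil (0.899) and erythroid cells (1.14), Arid1b over megakaryocyte cells (0.994) and Arid1a over erythroid cells (0.761). Relative to the median gene they were Smarca4 over granulocyte-monocyte (0.923) and monocyte cells (0.895), Smarcd2 over neutrophil cells (0.769), Smarcc1 (0.934) and Arid1a (0.996) over monocyte cells and Smarcc2 over erythroid cells (0.870).

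No paired analysis was possible because there is 1 library. Depth limits Smarcd3 most, with 0 to 5 UMIs in each gate other than stem-like.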
